A study of Saccharomyces cerevisiae with 13 samples.

Results

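The genes described here are the 500 budding yeast genes that replicate latest by a fitted replication time deposited with the nucleosome profiles. Of the 6326 genes in the tables, the 547 genes on chromosome 12 were left out, the 400 genes whose transcription start site (TSS) lay farthest from a replication origin were removed, and the 500 highest fitted times were taken from the 5379 genes that remained. Had no gene been removed for its distance, 293 of these genes would still have been among the 500 latest. The measured nucleosome signal played no part in the choice. The fitted time of the latest-replicating genes ran between 65.04 and 99.4 (median 70.7), against a median of 44.7 in the other 4879 eligible genes and of 30.8 in the 500 earliest of them. The files state neither the unit nor the source of this time, so it is used here only as an order. At the edge of the set, the last genes inside were ADK2 with 65.045, STE4 with 65.043 and MGM1 with 65.043, and the first genes outside were YPR077C with 65.022, PCL8 with 65.001 and SDS3 with 64.952, so the edge separates genes with nearly equal times.

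Nascent chromatin was followed in asynchronous cells of a W303-derived strain. The strain carries the h-ENT1 nucleoside transporter, a viral thymidine kinase and, by the sample titles, a deletion of RTT109. Newly made DNA was labelled with EdU for 5 min, thymidine was added for another 5 min, and aliquots were fixed at set times after that incubation, digested with micrococcal nuclease (MNase) and purified through the EdU. The 12 nascent libraries were taken at 0, 2, 4, 6, 8 and 15 min in replicate 1 and at 2, 4, 6, 8, 15 and 25 min in replicate 2, and 1 library holds total MNase-digested chromatin from asynchronous cells of the same strain (bulk). The 4 libraries at 8 and 15 min (long chase) were compared with the 4 at 2 and 4 min (short chase), and nascent chromatin was set beside bulk. Every group carries the transporter, the kinase and the deletion, and no wild type library was used here. The aliquots of a replicate came from a single culture, so the p-values measure only the spread between these libraries.

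The source label of every library names a chd1 deletion in place of the RTT109 deletion of the titles, and the titles of the nascent libraries call them input DNA where their descriptions call them nascent. The deposited signal was averaged over the 1000 bp after the TSS, without division by the other genes. Over RTT109 it was 0.0230 to 0.0675 in the nascent libraries of replicate 1 and 0.0632 in bulk. Over CHD1 it was 0.788 to 1.15 in the nascent libraries and 1.06 in bulk. RTT109 lies on chromosome 12, where all 531 genes with values were at 0 in the 6 libraries of replicate 2, so only replicate 1 and bulk bear on this check. Depth was 2.57 to 78.1 reads per 20-bp bin over both strands in the nascent libraries, lowest at 0 and 4 min of replicate 1, and 58.6 in bulk. Genes of chromosome 3 outside the set stood at 1.48 to 1.89 times the other eligible genes in the nascent libraries and at 1.05 in bulk. The source of this excess was not tested, and results that it touches are also given without chromosome 3.

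Yeast chromosomes replicate from many origins that fire at characteristic times, and a gene tends to be copied late when it lies far from an origin or beside one that fires late or seldom. Behind the fork, old and new histones are placed on both daughter strands, and the array of positioned nucleosomes downstream of the TSS and the nucleosome-depleted region (NDR) over the promoter have to be formed again. Rtt109 acetylates lysine 56 of newly made histone H3, a mark that promotes the deposition of new histones by assembly factors such as CAF-1. EdU in the pulled-down DNA shows that a stretch was copied during the pulse, and its MNase pattern shows how nucleosomes lay on it when the cells were fixed.

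The promoters of 7 of the latest-replicating genes named below are printed as a description. IFA38, FYV6 and DBP7 had the promoter over body ratios with the lowest p. The signal of BSC5 and HMRA1 was lower after the long chase, and that of MEP1 and OAF3 was higher. A link between these sequences and the changes was not tested. Each printed promoter is the 200 bases that end 51 bases before the annotated gene start, 5′ to 3′ on the gene's strand, from RefSeq's R64 assembly. Capitals mark, on either strand, a tract of A that disfavours nucleosomes (AAAAAAA), a core form of the TATA box (TATAAA) and the core of the site of the general regulatory factor Reb1 (TTACCCG), and matches may overlap.
IFA38 (chr2:558435-558634, forward strand): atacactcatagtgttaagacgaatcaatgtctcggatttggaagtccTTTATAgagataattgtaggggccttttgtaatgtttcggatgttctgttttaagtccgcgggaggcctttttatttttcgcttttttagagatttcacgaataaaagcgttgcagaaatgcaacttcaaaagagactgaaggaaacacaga
FYV6 (chr14:374743-374942, reverse strand): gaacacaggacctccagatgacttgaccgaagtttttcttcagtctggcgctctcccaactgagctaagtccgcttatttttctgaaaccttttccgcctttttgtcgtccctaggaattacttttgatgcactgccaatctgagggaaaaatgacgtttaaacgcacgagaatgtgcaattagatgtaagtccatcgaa
DBP7 (chr11:487423-487622, reverse strand): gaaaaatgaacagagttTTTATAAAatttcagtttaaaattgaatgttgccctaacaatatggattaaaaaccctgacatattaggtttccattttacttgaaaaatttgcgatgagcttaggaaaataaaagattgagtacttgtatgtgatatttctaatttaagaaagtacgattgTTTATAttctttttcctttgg
BSC5 (chr14:762643-762842, reverse strand): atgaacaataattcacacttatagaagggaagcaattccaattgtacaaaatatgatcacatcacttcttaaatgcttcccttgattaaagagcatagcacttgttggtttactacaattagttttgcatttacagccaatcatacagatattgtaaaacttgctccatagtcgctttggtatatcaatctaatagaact
HMRA1 (chr3:293585-293784, forward strand): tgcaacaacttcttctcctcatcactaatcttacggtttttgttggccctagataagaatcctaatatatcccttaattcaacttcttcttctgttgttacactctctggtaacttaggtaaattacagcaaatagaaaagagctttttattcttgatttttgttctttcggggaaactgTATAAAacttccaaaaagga
MEP1 (chr7:732978-733177, reverse strand): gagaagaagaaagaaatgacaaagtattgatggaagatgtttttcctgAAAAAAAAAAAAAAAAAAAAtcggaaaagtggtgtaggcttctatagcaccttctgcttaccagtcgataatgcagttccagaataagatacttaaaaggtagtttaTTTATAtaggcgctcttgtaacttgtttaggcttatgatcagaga
OAF3 (chr11:562297-562496, forward strand): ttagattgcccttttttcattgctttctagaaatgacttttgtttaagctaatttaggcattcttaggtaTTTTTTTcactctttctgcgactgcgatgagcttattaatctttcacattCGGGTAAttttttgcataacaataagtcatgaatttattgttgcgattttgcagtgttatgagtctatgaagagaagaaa

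The latest-replicating promoters held these motifs about as often as the promoters of other genes. Of the 452 members found in RefSeq by locus tag, 40.5% held AAAAAAA, against 43.3% of the promoters of all eligible genes, 38.5% held TATAAA against 37.1%, and 9.07% held TTACCCG against 7.53%. The AT content averaged 64.5% in the members and 64.6% in the other eligible genes. Within the set, 319 members were ranked by their promoter over body signal in bulk. This is the mean signal over the 150 bp before the TSS divided by that over the 1000 bp after it. The ranking took members with a bulk signal of at least 0.5 and an annotated gene start within 100 bp of the listed TSS. The 100 members with the lowest ratio held AAAAAAA in 50 and TTACCCG in 14 of their promoters, against 33 and 7 among the 100 with the highest. The printed promoters were mixed. OAF3, which holds both motifs, had a bulk ratio of 0.317, and MEP1, with an A tract, had 1.38. The others hold neither. Among these, HMRA1 had 0.152, the lowest of the 7, FYV6 had 0.422 and DBP7 0.624. IFA38 had 2.95, and BSC5 had 12.6, the highest, but was outside the ranking for its low signal. OAF3, MEP1 and DBP7 were outside it because their annotated starts lie more than 100 bp from the listed TSS. By the listed positions, their ratios were taken over other bases than those printed. The listed TSS of DBP7 lies far inside the annotated coding sequence, so its ratio compares coding stretches and not a promoter. In IFA38, BSC5 and HMRA1 the listed TSS also lies after the annotated start, so part of their 150 bp is coding. These offsets are approximate. A match is a description of the sequence and not a bound site.

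The late genes lay far from origins and in blocks. Their median distance from the nearest origin was 18564 bp, against 8485 bp in the other eligible genes and 5446 bp in the 500 earliest, and 7.80% of them lay within 5 kb of an origin, against 30.97% of the others. A distance limit is part of how the genes were chosen, and no eligible gene lay beyond 26278 bp. They took 19.1% of the eligible genes of chromosome 11 (61 of 319) and 19.1% of chromosome 13 (85 of 445), but 1.09% of chromosome 8 (3 of 276). They fell into 148 runs of neighbours, of which 63 held a single gene and 30 held 5 or more, together 287 genes. The largest runs held 15 genes each, GAS3 to DFG5 on chromosome 13 and ARB1 to SAP1 on chromosome 5. Neighbours share the same nascent fragments and forks, so the genes of a run are not independent.

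The set holds genes of many functions. Coactivator classes given in the files were spread as elsewhere, with 10.2% of members listed as SAGA-dependent against 10.9% of the other eligible genes and 78.6% as TFIID-dependent against 76.4%. The median RNA polymerase II value of the files was -0.0231 in the members and -0.0119 in the others. Among gene lists, a single cytosolic ribosomal protein gene was a member (RPL1B, 0.877% of those eligible), and none of 10 histone genes, 17 hexose transporter genes and 20 glycolytic genes. Multi-copy subtelomeric families gave 16 of 57, and the silencing list gave 4 of 13, namely SAS4 and SAS3, parts of the SAS and NuA3 acetyltransferases, and the silent mating-type genes HMRA1 and HMRA2. Members that act on replicated chromatin included HST3, which removes acetyl groups from H3 lysine 56, CAC2, a CAF-1 subunit, POL3, the catalytic subunit of DNA polymerase delta, PRI2, a primase subunit, and ARP8, a subunit of the INO80 remodeller. ARP8 had the highest fitted time of the members, 99.4, although its TSS lay only 1723 bp from a listed origin.

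A second replication time column in the files placed the members differently. It had a median of 35.3 in the members, 29.5 in the other eligible genes and 24.9 in the earliest, so the sets kept their order. Yet 131 members (26.2% of either list) were among the 500 latest by that column, and 68 members lay below the median of 30.1 of all eligible genes. Spearman's rank correlation of the columns was 0.476 across the 5379 eligible genes and 0.0631 across the 500 members, given as a description because neighbours share both times. The column's unit and source are not stated in the files.

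In nascent chromatin the latest-replicating genes carried more signal than the rest, and in bulk less. Signal was averaged from 500 bp before to 1000 bp after the TSS, and the mean of the 496 members with values was divided by that of the other eligible genes in the same library. The 6 libraries of replicate 1, by increasing time, had relative signals of 1.15, 1.12, 1.15, 1.11, 1.06 and 1.05. Those of replicate 2 had 1.13, 1.13, 1.12, 1.07, 1.00 and 1.08. Bulk had 0.922. Every nascent library thus lay above 1 and above bulk, the 15 min library of replicate 2 by the smallest margin. The log2 ratio averaged 0.13 ± 0.06 (SD, n = 12 libraries), was above 0 in 12 of 12, and gave an adjusted p = 0.000651 over 4 measures (two-sided exact sign-flip permutation test). Each replicate alone gave 6 of 6 libraries above 0 and p = 0.0313 by the same exact test, the smallest that 6 libraries allow. The mean log2 ratio was 0.13 without chromosome 3 and 0.08 when each run of neighbours counted once.

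**Figure D1:**
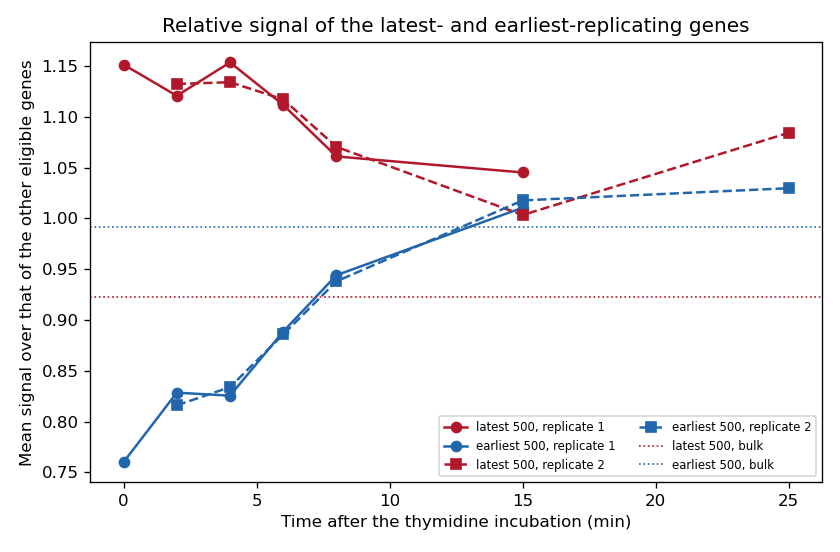
Mean signal of the 500 latest-replicating (red) and 500 earliest-replicating (blue) genes divided by that of the other eligible genes, on the y axis, against minutes after the thymidine incubation, with a line for each replicate and dotted lines for the single bulk library. The latest genes lay between 1.00 and 1.15 in the nascent libraries and at 0.922 in bulk, and the earliest genes between 0.760 at 0 min and 1.03 at 25 min.

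With the chase, the relative signal of the late genes was smaller. It averaged 1.05 ± 0.0297 after the long chase and 1.14 ± 0.0136 after the short chase (SD, n = 4 libraries each), a difference of -0.0902, and the 4 long-chase libraries all lay below the 4 short-chase libraries. The exact two-sided permutation test over 70 arrangements gave its smallest p, 0.0286, which was 0.10 after adjustment over 7 measures and so did not pass the threshold of 0.05. With arrangements confined to each replicate, the exact permutation p was 0.0556, the smallest of 36 arrangements. The 500 earliest genes had the opposite order, 1.01 and 1.02 at 15 min in replicates 1 and 2, against 0.828 and 0.816 at 2 min. These are shares of a library's signal, so fewer labelled cells in a region and less label per copy cannot be told apart, and a larger share elsewhere lowers the share of the late genes.

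When the eligible genes were split into 10 equal groups by fitted time, nascent signal did not climb to the end of the order. Group 9 stood above the latest group, group 10, in each of the 12 nascent libraries, with 1.14 and 1.16 against 1.11 and 1.11 of the eligible mean at 2 min in replicates 1 and 2, and 1.06 and 1.04 against 1.04 and 1.00 at 15 min. Bulk had 0.933 in group 10, the lowest of the 10 groups, and 1.00 in group 9. Within the set, the 100 members with the latest times had 1.02 ± 0.0240 after the long chase and 1.07 ± 0.00891 after the short chase, against 1.09 ± 0.0355 and 1.20 ± 0.0406 in members ranked 301 to 400 (SD, n = 4 libraries). A later fitted time among members therefore did not go with more nascent signal, and across the 496 members Spearman's correlation with it lay between -0.0628 and 0.0392 in the nascent libraries, a description over genes that share libraries and regions.

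**Figure D2:**
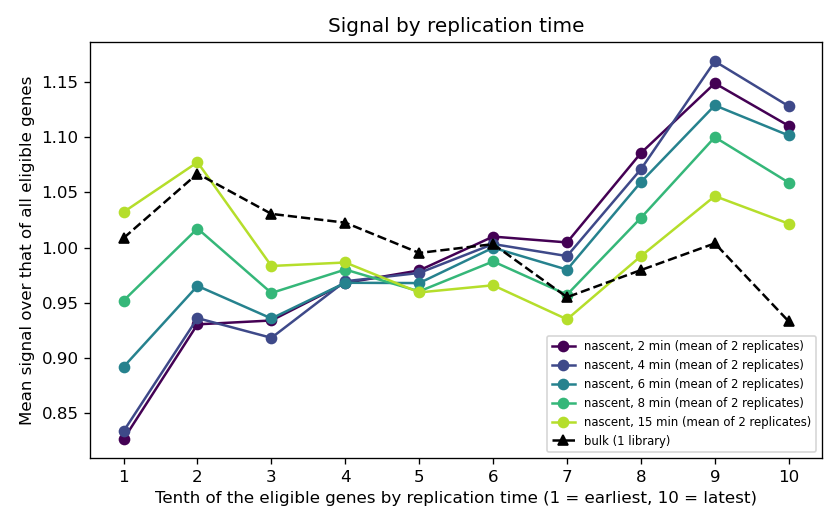
Mean signal of 10 equal groups of the eligible genes by fitted replication time (x axis, 1 earliest, 10 latest), divided by that of all eligible genes (y axis), for nascent chromatin at 2, 4, 6, 8 and 15 min (mean of both replicates) and bulk. Group 9 lay above group 10 at each time, and group 10 had the lowest value of bulk, 0.933.

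Signal also varied among the members with their distance from an origin and with the second time column. The 36 members with values within 5 kb of an origin had 1.03 ± 0.0189 after the long chase and 1.01 ± 0.0312 after the short chase, whereas the 203 members at 20 kb or more had 1.07 ± 0.0305 and 1.19 ± 0.0198 (SD, n = 4 libraries each). The 100 members latest by the second column had 1.18 ± 0.0661 after the long chase and 1.36 ± 0.0152 after the short chase. The 100 earliest by that column had 1.02 ± 0.0151 and 1.04 ± 0.0218. Members near an origin, or early by the second column, thus had nearly the signal of other genes in both groups. The 57 members with values within 30 kb of a chromosome's outermost TSS had less signal, 0.900 ± 0.0453 after the long chase, 1.05 ± 0.0199 after the short chase and 0.678 in bulk. These groups overlap, and the differences between them were not tested.

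Relative to bulk, single late genes followed the same direction. Mean nascent signal from 2 to 15 min over bulk signal was above 1.5-fold in 44 of 490 members (8.98%), against a background of 4.13% of all eligible genes, and over 1.5-fold lower than bulk in 4 (0.816%), against 2.74%. The median log2 ratio was 0.23 in the members and -0.02 in the other eligible genes. All 14 members of chromosome 3 in this count were among the 44, against a background of 72.9% of that chromosome's eligible genes (121 of 166). Outside that chromosome 30 of 476 members (6.30%) were above 1.5-fold, against a background of 1.92%, and 4 (0.840%) were over 1.5-fold lower, against 2.83%. Bulk is a single library, so these ratios have no replicate check.

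The 5 members with the highest nascent over bulk ratios all lay at the right end of chromosome 3. On that chromosome 72.9% of all eligible genes were above 1.5-fold, so a high ratio there is not particular to late genes. YCR099C, an uncharacterised gene with the highest ratio (log2 1.96), had 1.84, 1.75, 1.44 and 1.16 after the long chase, 1.76, 2.87, 1.77 and 2.05 after the short chase and 0.463 in bulk (8 and 15 min, or 2 and 4 min, of replicate 1 and then of replicate 2). EMA35, the third in order, had 2.17, 1.86, 2.25 and 1.48 after the long chase, 2.07, 2.49, 2.35 and 2.42 after the short chase and 0.589 in bulk. In both genes every nascent library was above bulk, but the chase groups overlapped. YCR097W-A, an uncharacterised gene beside the silent mating-type locus HMR, had 2.03, 2.22, 2.56 and 2.16 after the long chase, 3.77, 2.97, 3.63 and 3.06 after the short chase and 0.734 in bulk. HMRA1, the silent copy of the a1 regulator gene at HMR, had 1.37, 1.37, 1.60 and 1.27 after the long chase, 2.39, 1.96, 2.28 and 1.95 after the short chase and 0.501 in bulk. In YCR097W-A and HMRA1 every nascent library was again above bulk, and the long-chase libraries all lay below the short-chase libraries. HMRA2 beside it averaged 0.432 ± 0.0515, 0.647 ± 0.146 and 0.158 in the same order (SD, n = 4 libraries). HMR shares near-identical sequence with other mating-type loci, so reads over HMRA1 and HMRA2 may be split between copies and their values are uncertain. OCA4, a protein phosphatase-related gene of the same run that is outside the highest 5 but among the 10 latest by fitted time, had 1.96, 2.26, 2.16 and 2.04 after the long chase, 2.92, 2.75, 2.88 and 2.67 after the short chase and 0.757 in bulk.

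PHO87, a low-affinity phosphate transporter gene elsewhere on chromosome 3, had 2.67, 2.26, 2.28 and 1.99 after the long chase, 2.75, 3.08, 2.72 and 2.88 after the short chase and 0.951 in bulk, with no overlap of the groups. The 15 members of chromosome 3 together averaged 1.75 ± 0.0864 after the long chase, 2.15 ± 0.0480 after the short chase (SD, n = 4 libraries each) and 0.701 in bulk, while other genes of the chromosome stood at 1.60 to 1.63 at 2 and 4 min and at 1.76 to 1.89 at 8 and 15 min. The late genes of this chromosome thus differed from their chromosome after the short chase more than after the long chase.

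The same order was seen over most blocks of late genes. Of the 30 runs of 5 or more members, 24 had a lower mean after the long chase than after the short chase, and in 13 all 4 long-chase libraries lay below all 4 short-chase libraries. After the short chase 25 runs stood above 1, and in bulk 23 stood below 1. Runs of other genes were not counted, so these counts have no background. Among single genes, 53.7% of the other eligible genes had a lower mean after the long chase, against 72.7% of the members. The run CDC50 to YCR097W-A on chromosome 3, 6 genes, had 1.71 ± 0.112 after the long chase, 2.37 ± 0.160 after the short chase and 0.641 in bulk. SKT5 to SEC17 on chromosome 2, 13 genes that include SAS3, had 1.28 ± 0.0598, 1.46 ± 0.0431 and 1.12 in the same order (SD, n = 4 libraries).

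A few blocks ran the other way. KTR2 to YKR070W on chromosome 11, 10 genes, had 0.842 ± 0.135 after the long chase, 0.616 ± 0.0460 after the short chase and 0.758 in bulk, and MEP1 to SYF2 on chromosome 7, 8 genes, had 0.734 ± 0.0659, 0.624 ± 0.0907 and 0.760. Both were depleted of signal after the short chase instead of enriched. The KTR2 run was not low in the earliest library, with 0.974 at 0 min of replicate 1, nor at 25 min of replicate 2, with 1.01. The MEP1 run had 0.862 at 0 min of replicate 1 and 0.614 at 25 min of replicate 2, the latter near its short-chase mean.

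**Figure D3:**
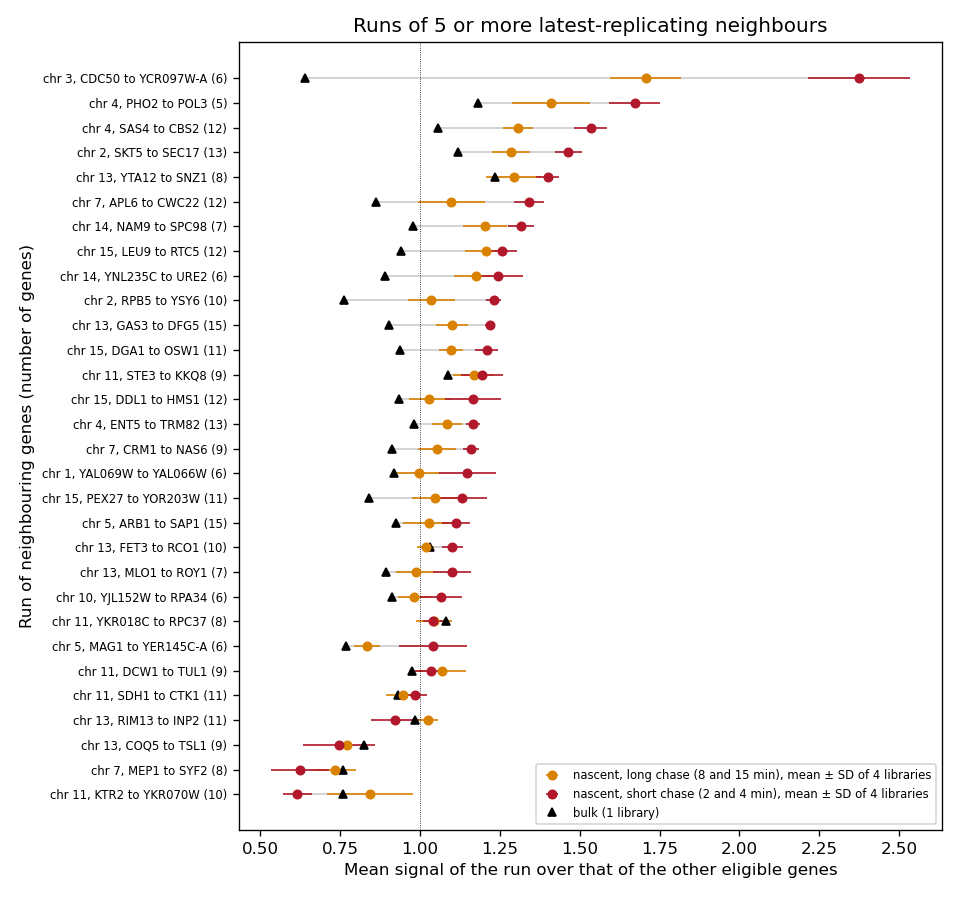
Mean signal of each of the 30 runs of 5 or more latest-replicating neighbours over that of the other eligible genes (x axis), one run per row, after the long chase (orange, mean ± SD of 4 libraries), after the short chase (red, mean ± SD of 4 libraries) and in bulk (black triangles, 1 library). Most runs, 24 of 30, had a lower mean after the long chase, the chromosome 3 run CDC50 to YCR097W-A stood farthest to the right, and the KTR2 run on chromosome 11 lay in the opposite order. Runs of other genes were not counted for comparison.

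Gene by gene, few late genes passed the test between the long and the short chase. Signal per gene was compared with limma on log2(value + 0.1), fitted over 5678 genes, so that fold changes of low genes are understated. At an adjusted p under 0.05, 18 of 484 members rose, against a background of 5.00% of all genes tested, and 6 fell, against 0.669%. Their shares were 3.72% and 1.24%, and with so few genes called no result about the set is drawn from them. At an unadjusted p under 0.05 (limma), 36 members (7.44%) were higher and 56 (11.6%) lower. All genes tested had 13.6% and 6.62%. The median log2 change of the members was -0.07, against -0.004 over all genes tested, and 33.7% of members were above 0, against 49.1%. With the replicate as a block the counts were 24 and 23 of 484 members, against backgrounds of 8.63% and 2.66%. Without any test, 80 of 490 members (16.3%) had all 4 long-chase libraries below all 4 short-chase libraries, against a background of 9.94%, and 16 (3.27%) had them all above, against 9.06%.

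The 18 genes that rose were clustered, with 12 of them in 4 runs. MEP1, an ammonium permease gene on chromosome 7, had 0.695, 0.603, 0.418 and 0.436 after the long chase, 0.210, 0.0982, 0.339 and 0.326 after the short chase and 0.657 in bulk. Its groups did not overlap, and its level after the long chase was nearer to bulk. But MEP1 had 0.813 at 0 min of replicate 1. At 25 min of replicate 2 it had 0.355, near the short-chase libraries of that replicate, so its level did not climb steadily with time. The log2 change was 0.96 ± 0.18 (SE, limma, adjusted p = 0.00189), 1.60 in replicate 1 and 0.32 in replicate 2. YGR121W-A, which is listed with the same TSS and so shares its reads, rose by 1.27 and the neighbour YGR122W by 0.75 on the log2 scale. YGR161W-C on the same chromosome rose by 0.94.

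On chromosome 11, OAF3, a zinc-cluster transcription factor gene, had 0.588, 0.868, 0.783 and 0.899 after the long chase, 0.353, 0.275, 0.697 and 0.323 after the short chase and 0.851 in bulk. One short-chase library, 2 min of replicate 2, lay within the range of the long chase. The log2 change was 0.87 ± 0.18 (SE, limma, adjusted p = 0.00394). At 6 min OAF3 had 1.13 and 1.15 in replicates 1 and 2, and at 0 min of replicate 1 it had 1.31, so its level did not climb steadily with time. In the same run CCP1, encoding cytochrome c peroxidase, rose by 0.71, LAS1, a ribosomal RNA processing endonuclease gene, by 0.58, and GPT2, a glycerol-3-phosphate acyltransferase gene, by 0.51 on the log2 scale. UGP1, encoding UDP-glucose pyrophosphorylase, and its neighbours AIM26 and YKL036C rose by 0.55, 0.50 and 0.72 in another run of the chromosome.

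NCE103, the carbonic anhydrase gene, and IDH1, encoding a subunit of mitochondrial isocitrate dehydrogenase, are neighbours on chromosome 14 and lie 497 and 253 bp from a listed origin. NCE103 had 0.791, 0.990, 0.459 and 1.08 after the long chase, 0.434, 0.47, 0.353 and 0.360 after the short chase and 0.822 in bulk. The log2 change of NCE103 was 0.87 ± 0.16 (SE, limma, adjusted p = 0.00132), with 1 long-chase library, 8 min of replicate 2, at the level of the short chase. IDH1 rose by 0.66 on the log2 scale. Both are late by the fitted time but early by the second column, with 15.96 and 16.1. Over the 18 genes the mean relative signal was 0.915 after the long chase, 0.559 after the short chase and 0.926 in bulk. These genes were picked by this comparison, so the chase means restate the choice.

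The 6 genes that fell averaged 1.12 after the long chase, 1.697 after the short chase and 0.590 in bulk, and 4 of them lay in 2 runs. They were picked by this comparison, so the chase means restate the choice. YMR230W-A, an uncharacterised gene within the GAS3 run, had 0.600, 0.614, 0.862 and 0.790 after the long chase, 1.33, 1.02, 1.36 and 1.26 after the short chase and 0.627 in bulk. The groups did not overlap, and the log2 change was -0.69 ± 0.15 (SE, limma, adjusted p = 0.00626). RPB5, encoding a subunit shared by the 3 nuclear RNA polymerases, had 0.921, 1.03, 1.08 and 0.954 after the long chase, 1.29, 1.72, 1.41 and 1.44 after the short chase and 0.747 in bulk. RPB5 fell by 0.47 (limma, adjusted p = 0.0316) and AMN1, an antagonist of mitotic exit in the same run, by 0.42 on the log2 scale. HMRA1 fell by 0.54 (limma, adjusted p = 0.0152), YCR097W-A by 0.52 and BSC5 by 0.61. At 25 min of replicate 2, YMR230W-A had 1.23, RPB5 1.25, HMRA1 1.81, YCR097W-A 3.47 and BSC5 0.467. Each stood above all its long-chase libraries there, so these levels did not fall steadily with time. At 0 min of replicate 1, RPB5 had 1.01 and BSC5 0.265, within their long-chase ranges. YMR230W-A had 1.11, HMRA1 2.01 and YCR097W-A 2.80 at 0 min, above theirs. The call of RPB5 was lost in 8, that of YCR097W-A in 6 and that of HMRA1 in 5 of 10 fits that each left out a library or a replicate (limma, adjusted p up to 0.217, 0.164 and 0.161). Of the 10 genes named for a rise or a fall, none passed with replicate 1 left out and 4 passed with replicate 2 left out.

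**Figure D4:**
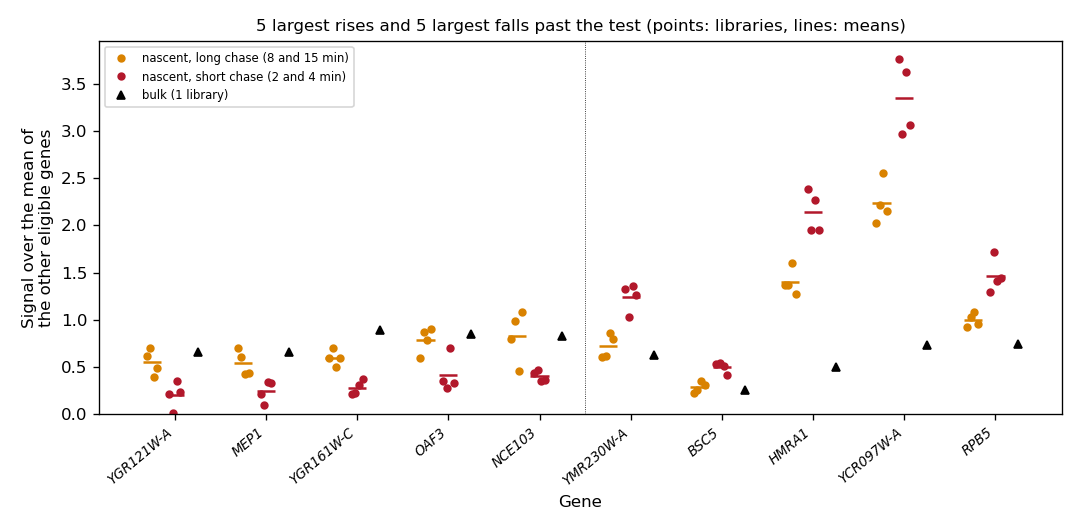
Signal of the 5 members with the largest rise and the 5 with the largest fall among those that passed the test, divided by the mean of the other eligible genes (y axis), with a point for each library of the long chase and the short chase, lines for their means and triangles for bulk. The genes that rose, left of the dotted line, had bulk levels nearer to those of the long chase, and HMRA1 and YCR097W-A had short-chase levels of 1.95 to 3.77 against 0.501 and 0.734 in bulk.

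The nucleosome pattern of the late genes was measured on their average profile, as the NDR depth (the minimum within 200 bp upstream of the TSS, divided by the mean of the window used for the level, so that a lower value is a deeper NDR), the +1 peak height (the maximum within the first 130 bp, divided by the same mean) and the peak/trough ratio (mean over nucleosomes +2 to +7 of the peak over its flanking troughs). Late genes had a slightly deeper NDR, a higher +1 peak and a sharper array than the other genes of the same library. Members minus others averaged -0.0206 ± 0.0131 for NDR depth (below 0 in 11 of 12 libraries, adjusted p = 0.000977), 0.0375 ± 0.0198 for the +1 peak (above 0 in 12 of 12, adjusted p = 0.000651) and 0.0209 ± 0.00627 for the peak/trough ratio (above 0 in 12 of 12, adjusted p = 0.000651) (SD, n = 12 libraries, two-sided exact sign-flip permutation test). Bulk had the same order, with NDR depths of 0.450 in the members and 0.498 in the others, +1 peaks of 1.44 and 1.39, and ratios of 1.18 and 1.16.

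These differences are small and depend on which genes weigh most. With each run of neighbours weighted alike the NDR difference was 0.0207, in the opposite direction (adjusted p = 0.00326, exact permutation over 12 libraries), and with the 500 latest genes of the second column it was -1.21e-05 and that of the peak/trough ratio 1.13e-05. Along the gene, the peak/trough ratio of the +3 nucleosome alone was 1.20 ± 0.0250 in the members and 1.15 ± 0.0198 in the others (SD, n = 12 libraries). In bulk it was 1.31 and 1.24. The peaks of the members in bulk lay at 50, 210, 370, 550, 710, 870 and 1030 bp from the TSS. The nascent +1 peak was at 50 bp in 10 libraries and at 30 bp at 15 and 25 min of replicate 2, a shift of 1 bin.

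**Figure D5:**
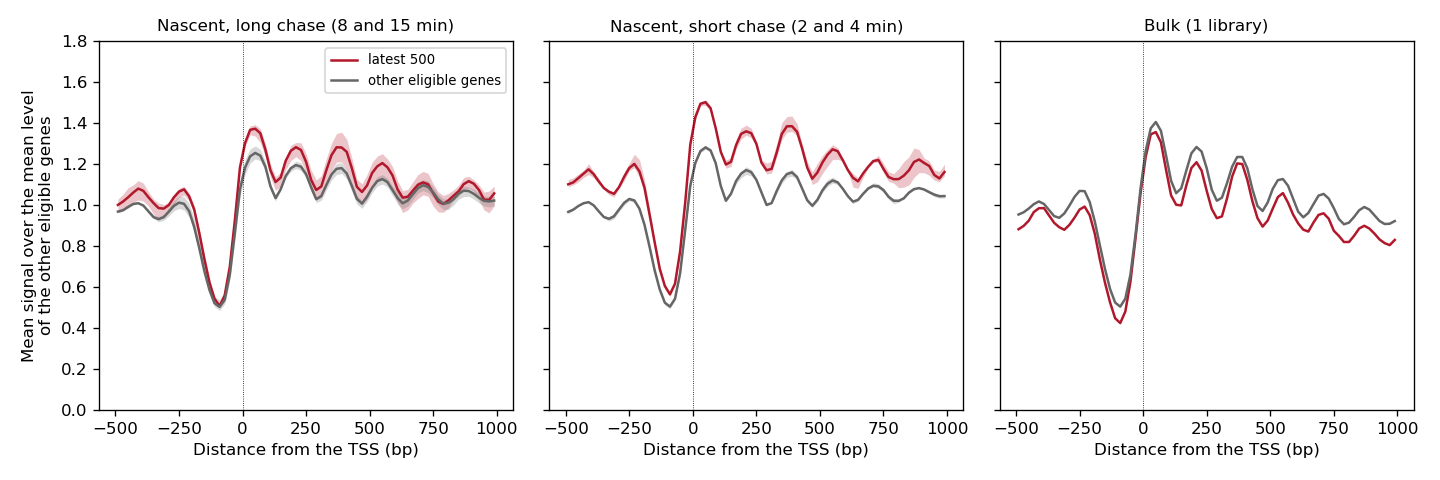
Average signal of the latest-replicating genes and of the other eligible genes against distance from the TSS in bp, divided by the mean level of the other eligible genes, in panels for nascent chromatin after the long and the short chase (lines, means of 4 libraries, with bands from the lowest to the highest) and for bulk (1 library). The latest genes ran above the others in nascent chromatin and below them in bulk, and both sets show a trough upstream of the TSS and a row of peaks downstream of it.

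No measure of the pattern over the late genes passed the test between the long and the short chase, a test in which the smallest p that 4 against 4 libraries allow is 0.0286 before adjustment over 7 measures and 0.10 after it here. NDR depth was 0.473 ± 0.0176 and 0.484 ± 0.00452 (SD, n = 4 libraries each), a difference of -0.0108 (adjusted p = 0.400, exact two-sided permutation test). The +1 peak stood at 1.28 ± 0.0231 and 1.29 ± 0.0105, a difference of -0.00748 (exact permutation, adjusted p = 0.571), and the peak/trough ratio at 1.13 ± 0.00972 and 1.11 ± 0.0138, a difference of 0.0183 (exact permutation, adjusted p = 0.150). The excess of the members' peak/trough ratio over that of the other genes was 0.0247 ± 0.00581 and 0.0152 ± 0.00191, a difference of 0.00954 with the smallest exact permutation p of the design, 0.0286 (adjusted 0.10), and the 4 long-chase libraries (0.0176 to 0.0308) all lay above the 4 short-chase libraries (0.0128 to 0.0173). The ratio of the members was 1.09 to 1.13 in the nascent libraries, all below the 1.18 of bulk.

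No late gene passed the gene-by-gene tests of the pattern. The promoter over body ratio passed in 0 of 482 members (limma), against a background of 0.0530% higher and 0% lower over 5663 genes. At an unadjusted p under 0.05, 20 members (4.15%) were higher and 25 (5.19%) lower, against 3.64% and 4.59% of all genes tested. The contrast of nucleosome peaks over troughs passed in 0 of 392 members (limma), against a background of 0%. At an unadjusted p under 0.05, 29 members (7.40%) were higher and 11 (2.81%) lower, against 6.50% and 3.40% of all genes tested. As values only, the lowest p of the promoter ratio belonged to IFA38, encoding a ketoreductase of very-long-chain fatty acid synthesis, with a ratio of 1.69 ± 0.347 after the long chase and 3.35 ± 0.639 after the short chase (limma, adjusted p = 0.312), and 2.95 in bulk. Its printed promoter holds a TATAAA match but no A tract. More signal lay over the 150 bp before its TSS than over the gene body. That stretch is not the same as the printed bases, which are placed from the annotated gene start. FYV6 had 0.449 ± 0.0195 and 0.222 ± 0.0416, against 0.422 in bulk (limma, adjusted p = 0.326), and DBP7, an RNA helicase gene of ribosome biogenesis, had 0.492 ± 0.0425 and 0.918 ± 0.144, against 0.624 in bulk (limma, adjusted p = 0.350) (SD, n = 4 libraries). By the listed positions the 150 bp of DBP7 lie within its coding sequence, so its value does not describe a promoter. The lowest p of the nucleosome contrast belonged to PGM2, the major phosphoglucomutase gene, PTH2, a peptidyl-tRNA hydrolase gene, and OAF3, with log2 changes of 0.24, 0.25 and 0.50 (limma, adjusted p = 0.215, 0.264 and 0.271).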

How the data were processed

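Libraries were made by the authors from MNase-digested nascent (EdU-purified) and total chromatin. The submitters' processing notes name CASAVA 1.7.0, and the aligner and genome build are not given in the sources used here. The deposited values are the authors' coverage signal per 20-bp bin around each TSS, relative to the mean of the library, for each strand. Both strands were averaged here. Cells with the letter R (217828) or NaN (910), together 1.60% of cells, were treated as missing. The tables hold 6 row names (37956 rows) that match no sample, and these were not used. TSS positions in the files are rounded and of an unstated build. They were set against R64 gene starts only for the promoter ranking and the printed promoters, so those offsets are approximate.

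Levels were divided by the mean of the other eligible genes of the library. Of the 500 members, 496 had values, of which 490 were above 0 in nascent chromatin and 6 were at 0 in every nascent library. Group means were compared by exact permutation over libraries (70 arrangements of 4 against 4, or sign flips over 12), with Benjamini-Hochberg adjustment over 7 and 4 measures, and genes with limma 3.58.1 (R 4.3.3) on log2(value + 0.1) over all genes above 0 in all 8 libraries compared. Python 3.11.15, numpy 2.4.6, pandas 2.3.3 and matplotlib 3.10.9 were used. The fits were tested on simulated data. The numbers of whole reads behind the values limit single genes most at 0 and 4 min of replicate 1.

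Replicate numbers pair the libraries because, per the labels, the aliquots of a replicate come from one culture. Deviations of same-numbered libraries from their group means correlated at -0.0909 to 0.0145 across genes. The genes named are the 10 with the latest times, up to 5 per direction that passed a test and changed alike in both replicates, the 3 with the lowest p where none passed, the extremes of nascent over bulk signal, the 3 at each side of the edge of the set and members of the gene lists. AMN1 and the other genes of runs that passed were named after their values were seen. The members and lists were chosen with earlier results of these data known. The alternatives were other normalizations, filters, pseudocounts, time points, set sizes, the replicate block and leaving out each library. Added after the data were seen were the second time column, equal weights for runs, leaving out members within 5 kb of an origin, fixed bins for the NDR and +1 peak, peaks found in each profile, leaving out chromosome 3, and levels relative to the same chromosome.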

Additional observations from a re-analysis of the deposited data

Results flagged for a closer look

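The 25 min library of replicate 2 stood apart in 2 of the 28 groups of profile values examined, where chance alone marks about 1 in 20. Over the latest-replicating genes it had an NDR depth of 0.875, where the rest of the replicate ran between 0.460 and 0.494, and a +1 peak height of 1.48, where the rest ran between 1.24 and 1.30. The other eligible genes of the same library had 0.925 and 1.40, so both gene sets had a shallow NDR there. This library enters neither the long nor the short chase. None of the 20 groups of single named genes was marked.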

How the results depend on the processing

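The relative signal of the latest-replicating genes kept its direction in all 28 alternatives of the chase comparison (-0.303 to -0.0743) and all 30 of the comparison over libraries (0.08 to 0.30 on the log2 scale). Exact permutation over so few libraries limits every chase comparison. With the replicate block the smallest p that the exact permutation allows is 0.0556, so no call could appear there. Small pattern differences turned sign. Over the members, the long minus short difference of NDR depth was 0.0200 with medians over genes, 0.00675 for 15 against 2 min and 0.0687 with 0 and 25 min added, and that of the +1 peak was 0.0335, 0.0121 and 0.0531, and 0.00577 with bins at 0 treated as missing. For members minus others it was 0.00113 for NDR depth with medians, -0.00192 and -0.000505 for the +1 peak and the peak/trough ratio with 250 genes, and -0.00475 for the +1 peak with the second time column. Over the 12 libraries, the NDR difference was 0.0207 with runs weighted alike, -0.0104 with no gene removed for distance and -1.21e-05 with the second column, and -0.0241 to -0.0171 with libraries left out (p = 0.0625 by exact permutation with replicate 1 alone). The peak/trough difference was 1.13e-05 with the second column and 0.0163 with medians, and the +1 difference 0.0310 with medians. Members that rose numbered 0 without a filter on low signal and 1 to 21 with libraries left out, 10 without 2 min of replicate 1, 11 without 8 min or 15 min of replicate 2, 4 without replicate 2 and 1 without replicate 1. Members that fell numbered 18 with a pseudocount of 1, 24 with quantile normalization, 23 with the replicate block, 0 without a filter, and 0 to 8 with libraries left out, 3 without 2 min of replicate 1, and 2 without 15 min of replicate 1 or 2 min of replicate 2. Promoter ratio and nucleosome contrast gave 0 to 1 members with libraries left out. Of the 10 named genes that passed, 10 kept the call under the block, 4 without replicate 2 and 0 without replicate 1, and none turned sign. The cause was not tested.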

Other observations

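Among the 10 genes with the latest fitted times, YIL177W-A and YGL262W had no signal in any nascent library or in bulk, and both lie near chromosome ends. REC107, a meiotic recombination gene, had 0.903 to 1.23 in the nascent libraries and 1.38 in bulk, below bulk throughout, whereas OMS1, a mitochondrial membrane protein gene, had 1.07 to 1.75 and 0.945, above bulk throughout. SRM1, the exchange factor of the Ran GTPase, had 0.765 to 1.32 and 0.967. The latest genes by the fitted time were thus on either side of bulk.

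Among members of the gene lists, the replication fork genes POL3 and PRI2 together averaged 1.20 ± 0.119 after the long chase, 1.42 ± 0.157 after the short chase (SD, n = 4 libraries each) and 0.920 in bulk, and neither passed the test. Of the 16 members of multi-copy subtelomeric families, 13 were tested and 1 passed, SNZ2, a vitamin B6 synthesis gene, which rose by 0.50 on the log2 scale (limma, adjusted p = 0.0368). Where genes of this list have near-identical copies, their reads may be split and their levels are uncertain. The list also takes in SNZ1 and SNO1, which lie in a run within chromosome 13 and not at its end. The 6 members of the ribosome biogenesis list had 0.858 ± 0.0180 after the long chase, 1.03 ± 0.0746 after the short chase and 0.822 in bulk, with none of 6 past the test.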
